A study of Mus musculus with 9 samples.

Results

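The mRNAs of 35 proteins that work in the nucleolus were followed in mouse testicular peritubular myoid cells before and after a short heat treatment. The members were chosen by name: genes for RNA polymerase I and its promoter factors, for the proteins of small nucleolar ribonucleoproteins (snoRNPs), and for factors that process and assemble pre-ribosomes. Each of the 35 symbols matched 1 row among 20717 genes listed, and all 35 passed the filter of at least 1 FPKM in at least 3 of 9 libraries that left 11460 genes to test. FPKM are fragment counts divided by transcript length and by the number of mapped fragments, so each value is a share of its library.

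Ribosomes are built in the nucleolus. RNA polymerase I copies the ribosomal DNA into a long precursor RNA. Box C/D snoRNPs methylate that precursor, box H/ACA snoRNPs turn chosen uridines into pseudouridine, and successive sets of assembly factors fold and cut it into the RNAs of the small and large subunits. Nucleoli are known to respond to heat, and growing cells keep these genes active.

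Peritubular myoid cells are the contractile cells around the seminiferous tubules. They came from C57BL/6J mice as primary cells and were grown at 37 °C with 10% fetal bovine serum. The control cells had no heat. The other groups had 42 °C for 30 min in a water bath and were collected 1 h or 6 h later, and each group has 3 libraries. The age of the animals is not given in the sources used here. Replicates carry numbers only, with no word on whether they are different animals, isolations or dishes, so each p-value measures the spread between libraries, which may be technical.

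Depth estimated from the lowest values was 19100000 to 20000000 reads per library. Hspa1a, an inducible HSP70 that checks the heat labels, was at 10.2, 12.3 and 6.92 FPKM in control replicates 1, 2 and 3, at 1228, 1794 and 1513 FPKM at 1 h, and at 49.3, 27.1 and 40.4 FPKM at 6 h. All 6 myoid markers were tested, and their summed level was 3231 to 3960 FPKM in control, 3104 to 3273 FPKM at 1 h and 2692 to 3988 FPKM at 6 h. Their log2 changes were below 0 for 6 of 6 at 1 h (median -0.55) and at 6 h against control (median -0.37). The 7 Leydig markers summed to 910 to 2138 FPKM in control, 872 to 2030 at 1 h and 1400 to 2031 at 6 h. Insl3 was at 181 to 1607, Cyp11a1 at 288 to 820, Star at 42.2 to 211 and Hsd3b1 at 33.2 to 188 FPKM. Cyp17a1, Lhcgr and Hsd17b3 were at most 0.11, 0.27 and 0.12 FPKM. Of 4 tested, 2 were above 0 at 1 h (median 0.001) and 4 at 6 h against control (median 0.35). Germ cell markers summed to 1.53 to 9.11 FPKM, and 2 of 2 tested were above 0 in both comparisons (medians 0.86 and 0.57). Control replicate 3 stood apart in the 8 Sertoli markers, which summed to 3100 FPKM there and to 287 and 351 FPKM in the other controls, 247 to 536 FPKM at 1 h and 388 to 497 FPKM at 6 h. Of these markers Clu, Cldn11, Wt1, Sox9 and Gata4 were tested. In control replicate 3 Clu, Cldn11, Wt1 and Sox9 were at 2700, 237, 53.8 and 27.7 FPKM. In the other libraries they were at most 437, 8.23, 15.4 and 15.9 FPKM. Gata4 was at 79.9 FPKM in control replicate 3 and at 50.2 to 83.4 FPKM in the others. Fshr, Amh and Rhox5 were at most 0.09, 0.26 and 1.64 FPKM, each highest in control replicate 3. The macrophage markers summed to 54.2 to 84.7 FPKM in control, 56.2 to 228 FPKM at 1 h and 43.6 to 234 FPKM at 6 h, and 5 of 5 tested were above 0 at 1 h (median 0.80) and 4 of 5 at 6 h (median 0.86). The endothelial markers summed to 39.2 to 86.9, 28.5 to 53.6 and 30.2 to 58.6 FPKM, and 4 of 4 tested were below 0 in both comparisons (medians -0.51 and -0.82). None of the markers of these types was called by limma, and their part in the members' levels was not tested.

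The nucleolar genes were well expressed. Their median over 9 libraries was 25.3 FPKM beside 10.7 FPKM for the median tested gene, and 31 of 35 were above that median. Npm1, which encodes the shuttling chaperone nucleophosmin, led by far at 726 ± 256 FPKM in control, 668 ± 103 at 1 h and 776 ± 44 at 6 h (SD, n = 3). Ncl (nucleolin), Fbl, Nop58 and Nop56 followed at means of 86.3, 85.1, 84.4 and 78.1 FPKM over 9 libraries. At the other end stood Rrp12, Utp20 and Polr1b at 7.57, 6.16 and 5.28 FPKM. Along this order the ranges over libraries overlapped for 33 of 34 neighbouring pairs, and the exception was Npm1 above Ncl.

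**Figure D1:**
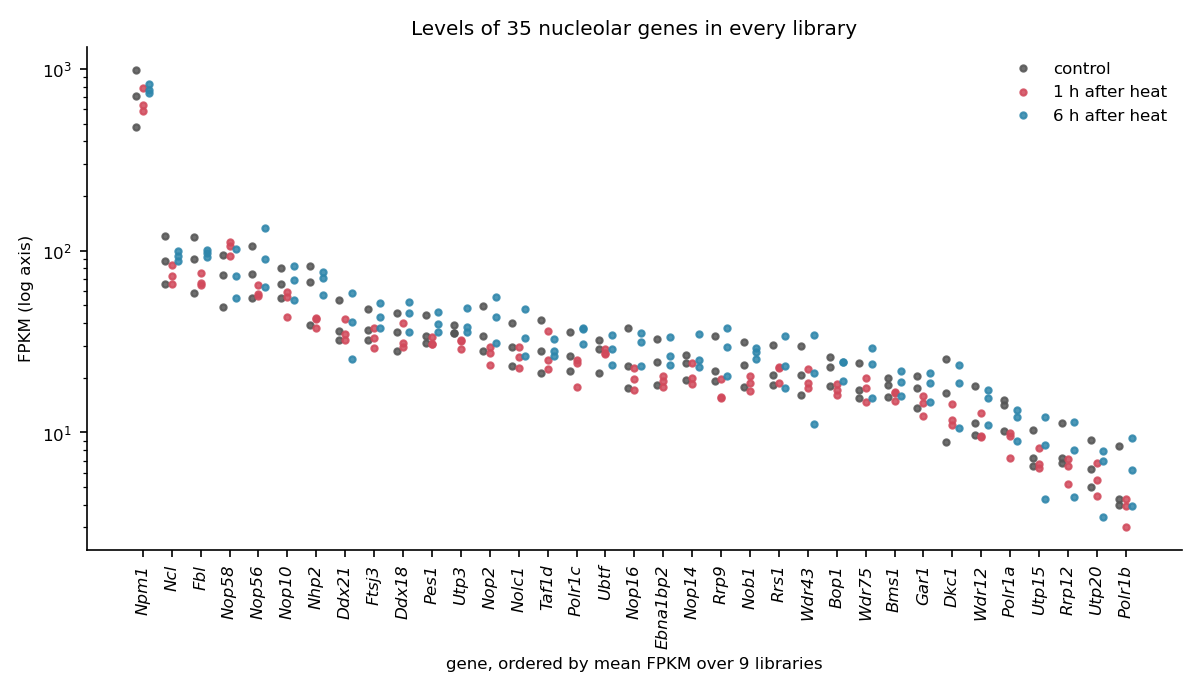
Levels of the 35 members (FPKM, log axis) in 9 libraries, ordered by mean, with each point 1 library coloured by group. Npm1 stands alone at 478 to 990 FPKM, and the control points (grey) of most genes span a wider range than the 1 h points (red).

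No member passed the test in any comparison. At 1 h against control, limma called 0 of 35 members higher and 0 lower at an adjusted p below 0.05, where over all genes tested 0.157% were called higher and 0% lower. The smallest adjusted p among the members was 0.44, for Polr1a. At an unadjusted p below 0.05 there was 1 member, Polr1a, or 2.86% of them, beside 10.8% of all genes. At 6 h against control 0 of 35 were called (0% of all genes in either direction), with 0 members beside 4.62% of all genes at an unadjusted p below 0.05 and a smallest adjusted p of 0.88. At 6 h against 1 h 0 of 35 were called (0% of all genes higher and 0.279% lower). There 7 members, 20% of them and all higher at 6 h, had an unadjusted p below 0.05 beside 11.6% of all genes, and the smallest adjusted p was 0.3, for Polr1c.

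Most members nonetheless lay on the same side of 0 within a comparison. At 1 h 33 of 35 had a log2 change below 0, with a median of -0.24, where 76.2% of all genes were below 0 with a median of -0.17. The members above 0 were Nop58 at 0.56 and Ubtf at 0.03. At 6 h against control 28 members were above 0 with a median of 0.15, beside 39.9% and a median of -0.06 for all genes. At 6 h against 1 h 34 members were above 0 with a median of 0.37, beside 62.9% and 0.095 for all genes. Nop58 was the exception at -0.47. Of 136 other ribosome biogenesis genes tested, 129 were above 0 there and 7 below (median 0.31). All 24 cytosolic ribosomal protein genes were above 0 (median 0.34), so this direction was not particular to the members. The 3 comparisons share libraries, so these counts are not independent of each other. In bulk RNA, fewer cells that make these mRNAs and less of them per cell cannot be told apart.

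The shift of all genes depended on scaling. FPKM are shares, and median-of-ratios scaling moved the all-gene median at 1 h from -0.17 to -0.01. With it 23 of 35 members were below 0 at 1 h, beside 52.7% of all genes. The members' median relative to all genes was -0.06, beside -0.07 on the deposited values. For 6 h against 1 h the scaling left 28 members above 0, beside 47.9% of all genes. The median relative to all genes was 0.262, beside 0.275.

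Single libraries set the comparisons with control. Without control replicate 2 the members' median at 1 h was -0.05, or 0.10 above that of all genes, and without control replicate 3 it was -0.40. For 6 h against control the median was -0.06 without control replicate 3, with 15 members above 0 beside 40.9% of all genes. It was 0.31 without control replicate 2, and it was 0.29 and 0.01 without 6 h replicates 2 and 1. The median for 6 h against 1 h ranged from 0.25 without 6 h replicate 1 to 0.49 without 6 h replicate 2.

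**Figure D2:**
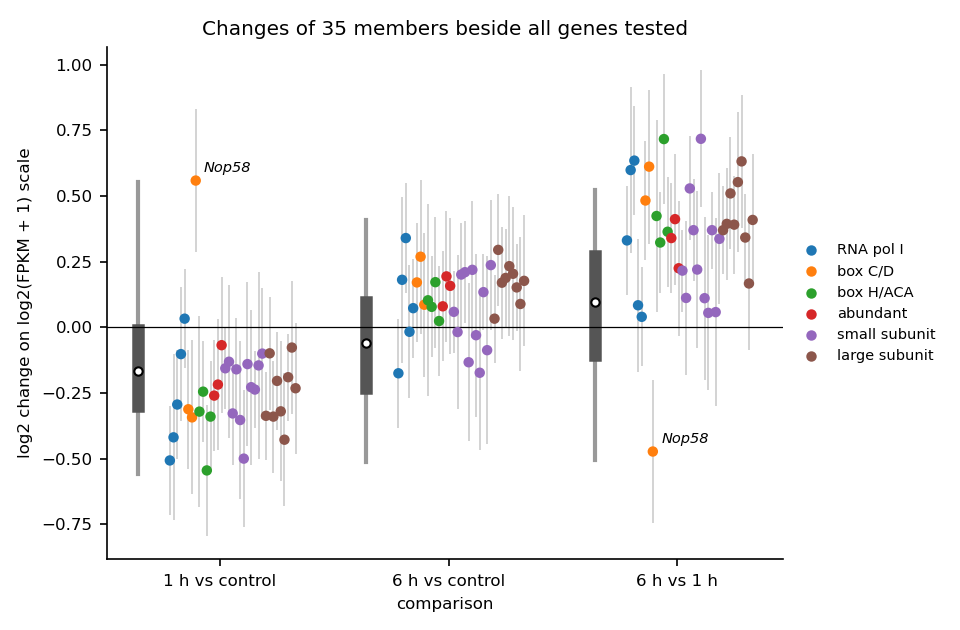
Log2 changes of the 35 members on the log2(FPKM + 1) scale in the 3 comparisons, coloured by role, with bars of 1 SE. The grey bars give all genes tested (thin, 5th to 95th percentile; thick, 25th to 75th; white point, median), and Nop58 lies on the other side of 0 from nearly all other members at 1 h and at 6 h against 1 h.

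Groups that do not overlap give another view. At 1 h 2 members, Polr1a and Utp3, had every library below every control library, which is 5.71% of the members beside 21.4% of all genes, and 0 had every library above (4.49%). At 6 h against control 0 members were clear of control in either direction (1.89% of all genes higher and 5.32% lower). At 6 h against 1 h 13 members, 37.1% of them, had every 6 h library above every 1 h library, beside 15.2% of all genes. These were Polr1c, Fbl, Nhp2, Ncl, Utp3, Rrp9, Nob1, Nop2, Nop16, Bop1, Pes1, Ebna1bp2 and Ftsj3, and 0 members were lower in this way (4.97%). Of 136 other ribosome biogenesis genes tested, 51 were higher in this way and 2 lower. Of 24 cytosolic ribosomal protein genes, 0 were clear in either direction. With median-of-ratios scaling the count was 11 members beside 8.89% of all genes. Leaving out 6 h replicate 2 gave 28 members beside 31.9%, and leaving out 1 h replicate 2 gave 21 beside 19%. Without 6 h replicate 1 the count was 14 beside 29.9%. Without 6 h replicate 3, 1 h replicate 1 or 1 h replicate 3 it was 13 each, beside 16.7%, 20.2% and 19.4%. With 6 h replicate 1 or 1 h replicate 3 left out, 1 member was lower, beside 9.53% and 8.31%. On the lower side at 1 h, median-of-ratios scaling left 0 members clear of control beside 6.99% of all genes. There, leaving out control replicate 3 gave 19 members beside 35.2%, 1 h replicate 2 gave 7 beside 28.4%, control replicate 1 gave 5 beside 30.5% and 1 h replicate 1 gave 4 beside 27.9%.

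The members moved largely as a block from library to library. The median deviation of the members from their own means, on the log2(FPKM + 1) scale, was -0.05, 0.45 and -0.30 in control replicates 1, 2 and 3. It was -0.22, -0.04 and -0.34 at 1 h and 0.42, -0.13 and 0.17 at 6 h. The groups therefore overlap in this median except that 1 h replicates 1 and 3 lie below all 6 h libraries. Of the 35 members 31 were highest in control replicate 2 (11 members) or 6 h replicate 1 (20 members), and in control replicate 2 all 35 were above their own means. The median SD of a member within the controls was 0.38 beside 0.24 for all genes, at 1 h 0.18 beside 0.15, and at 6 h 0.30 beside 0.28. For 23 members the correlation with the median of the other 34 over 9 libraries was over 0.8, highest for Nolc1 at 0.97 and lowest for Nop58 at 0.33 and Nop10 at 0.34. The libraries share their depth range and their group structure, so these correlations are a description. Genes outside the lists reached a correlation of 0.99 with the members' median. No share of all genes is given beside these counts, so they do not show a pattern particular to the members.

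**Figure D3:**
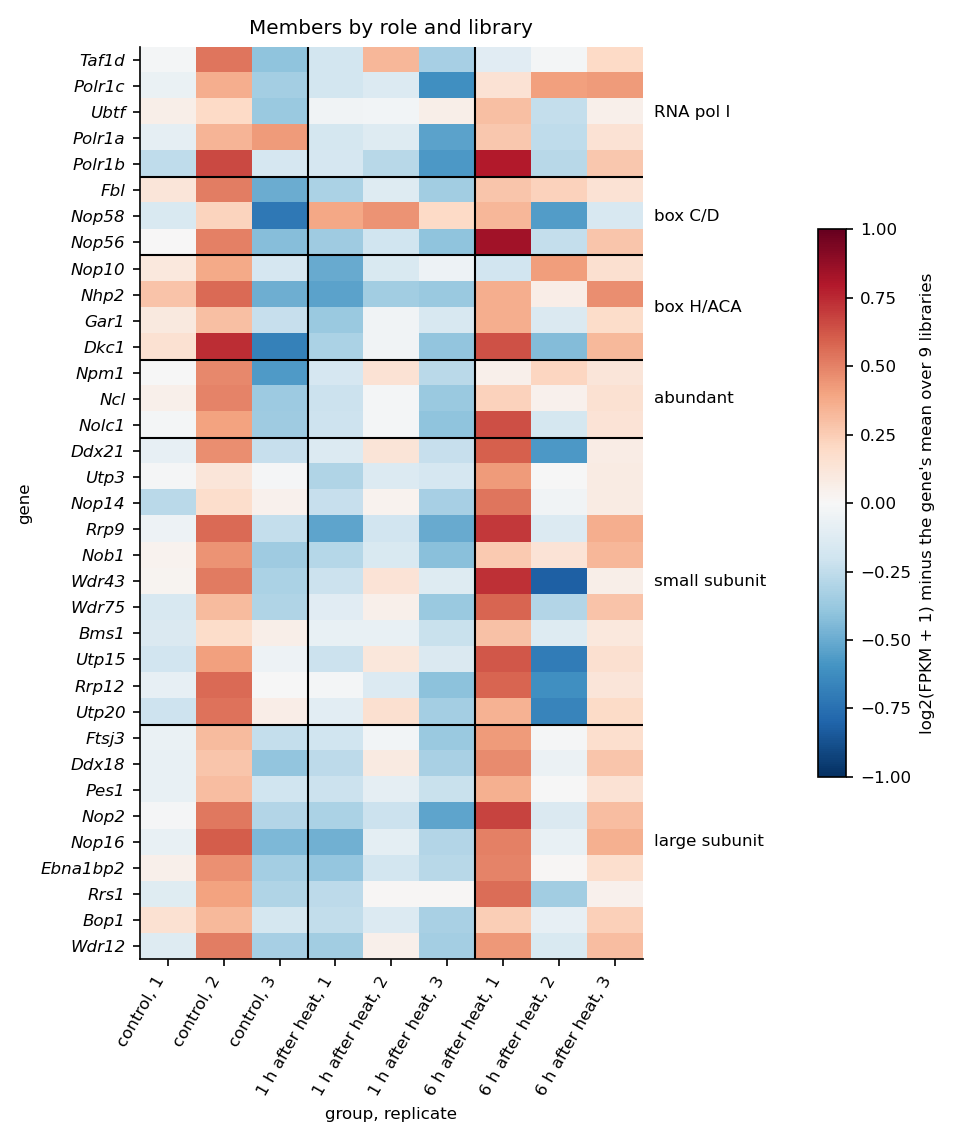
Log2(FPKM + 1) of each member minus its mean over 9 libraries, with members grouped by role and libraries by group (red above, blue below the mean). Control replicate 2 and 6 h replicate 1 are red for nearly all members, and Nop58 is red in all 3 libraries at 1 h where most members are blue.

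The same libraries differed in other genes. The 10 mitotic genes, all tested, summed to 229, 343 and 99.8 FPKM in control replicates 1, 2 and 3, to 153, 198 and 112 FPKM at 1 h and to 68.9, 187 and 209.8 FPKM at 6 h. Their order matched that of the nucleolar genes in control and at 1 h, and at 6 h replicate 1, the highest in nucleolar genes, was the lowest in mitotic genes. The 24 cytosolic ribosomal protein genes summed to 14209 FPKM in control replicate 3 and 35668 FPKM in 6 h replicate 2, and to 19209 to 25405 FPKM in the other libraries. The part of cell division or of other cell types in the members' levels was not tested.

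RNA polymerase I transcription is covered by 5 members, with median log2 changes of -0.29 at 1 h and 0.33 at 6 h against 1 h. Values by library are given for replicates 1, 2 and 3 of a group in that order. Polr1a encodes the largest catalytic subunit and was at 10.2, 14.1 and 15.03 FPKM in control, 9.54, 9.88 and 7.23 FPKM at 1 h and 13.3, 8.97 and 12.1 FPKM at 6 h. Its 1 h libraries were all below the controls, the 6 h libraries overlapped both, and the log2 change at 1 h was -0.51 (SE 0.21, limma adjusted p 0.44). Polr1b, the second-largest subunit and the least abundant member, was at 4.01, 8.46 and 4.31 FPKM in control, 4.32, 3.94 and 3.01 FPKM at 1 h and 9.36, 3.92 and 6.19 FPKM at 6 h. Its values were high in control replicate 2 and 6 h replicate 1 and the groups overlapped. Polr1c, a subunit shared with RNA polymerase III, was at 26.3, 35.9 and 21.7 FPKM in control, 24.2, 25.1 and 17.8 FPKM at 1 h and 30.7, 37.1 and 37.4 FPKM at 6 h. Every 6 h library was above every 1 h library, with a log2 difference of 0.63 (SE 0.21, adjusted p 0.3), and the 6 h libraries overlapped control. Ubtf, which binds the ribosomal DNA promoter, varied little between groups, at 27.4 ± 5.6 FPKM in control, 27.7 ± 1.1 at 1 h and 28.8 ± 5.5 at 6 h (SD, n = 3). Its log2 changes of 0.03, 0.07 and 0.04 in the 3 comparisons were each smaller than their SE of 0.19. Taf1d, a subunit of the selectivity factor that loads the polymerase, was at 30.5 ± 10.4 FPKM in control, 27.9 ± 7.2 at 1 h and 29.1 ± 3.4 at 6 h (SD, n = 3). The exons of Taf1d overlap several snoRNA genes on its own strand and exons of 4931406C07Rik over 235 bases on the other, and the strand setting is not given in the sources used here, so its values are less certain.

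The box C/D group held the member that went its own way. Fibrillarin (Fbl) is the methyltransferase of these particles, and Nop56 and Nop58 are paired scaffold proteins. Nop58 (chromosome 1, 59685006 to 59711510, plus strand, mm10) was at 73.2, 95.1 and 49.1 FPKM in control, 107, 111 and 93.6 FPKM at 1 h and 103, 54.95 and 72.5 FPKM at 6 h. The 1 h libraries were high, 2 of them above all others, and the third was below control replicate 2 and 6 h replicate 1, so the groups overlapped. The log2 change at 1 h was 0.56 (1.47-fold, SE 0.27, limma adjusted p 0.49), and from 1 h to 6 h it was -0.47 (SE 0.27, adjusted p 0.54). Neither passed the test, and without control replicate 3 the value at 1 h was 0.31. With median-of-ratios scaling the 1 h libraries of Nop58 were clear above control (9.11% of all genes) and clear above 6 h (9.16% of all genes lower at 6 h), and it was the only member in either count. Quantile normalization and length-bin centring, which sets the median of genes of like length equal across libraries, also had it as the only member clear above control at 1 h (7.61% and 9.93% of all genes). With both, as on the deposited values, 0 members were clear lower at 6 h than at 1 h (7.43% and 8.56%). Within same-numbered pairs Nop58 was higher at 1 h in 3 of 3, the only member of which this held, beside 8.18% of all genes, while 13 members were lower in all 3 pairs beside 38.2%. With the replicate number as a block the log2 change at 1 h was 0.56 with a limma adjusted p of 0.55.

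Nop56 (chromosome 2, 130274412 to 130279313, plus strand) was at 74.5, 106 and 55.1 FPKM in control, 57.9, 64.9 and 56.2 FPKM at 1 h and 134, 63.2 and 90.5 FPKM at 6 h. Its 1 h values were low and close together, its control and 6 h values wide, and its log2 changes were -0.34 at 1 h and 0.61 at 6 h against 1 h (SE 0.29 each, adjusted p 0.63 and 0.46). Fbl was at 90.6, 119 and 58.6 FPKM in control, 66.5, 75.7 and 65.2 FPKM at 1 h and 101, 97.6 and 91.9 FPKM at 6 h. All 6 h libraries were above all 1 h libraries and inside the range of control, with a log2 difference from 1 h of 0.48 (SE 0.23, adjusted p 0.45).

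Within a library the ratio of Nop58 to Nop56 separated the groups more clearly than either level. It was 0.983, 0.896 and 0.892 in control, 1.84, 1.72 and 1.66 at 1 h, and 0.767, 0.869 and 0.801 at 6 h. The 1 h libraries were all above the others, and control and 6 h did not overlap but lay close together. The ratio of Nop58 to Fbl was 0.815 ± 0.020 in control, 1.504 ± 0.089 at 1 h and 0.79 ± 0.23 at 6 h (SD, n = 3), while that of Nop56 to Fbl was 0.885 ± 0.059, 0.864 ± 0.007 and 0.987 ± 0.34. These ratios were picked after the values had been seen. The two-sided exact permutation test of 3 libraries against 3, which cannot go below 0.1, gave 0.1 for Nop58 to Nop56 in each comparison (0.39 adjusted over 27 tests of 9 ratios), and nothing is supported with it. Set against the members' median deviation, Rrp9 and Nop2 had every 1 h library below all 6 other libraries. Nop58 went the other way and stood 0.60, 0.49 and 0.53 above that median in the 1 h libraries. There it was higher than each of the other 34 members in every library. In all 6 other libraries Nop58 was below the median. This view takes the members themselves as its reference. It was also taken after the values had been seen, and no share of all genes is given beside it for Nop58, Rrp9 or Nop2. On FPKM 0 members had every 1 h library above all 6 others (1.68% of all genes), and only Utp3 had every one below (7.5%). With each library centred on the members' median, an alternative chosen after seeing the data, Nop58 had a log2 change at 1 h of 0.79 (SE 0.23). Its adjusted p over all genes in that fit was 0.35.

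**Figure D4:**
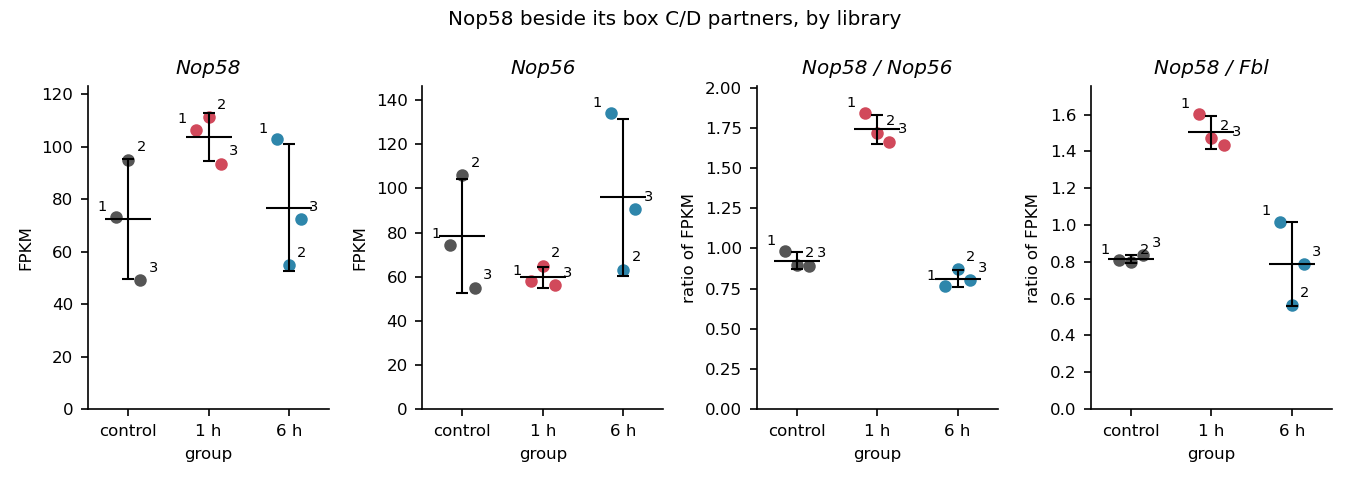
FPKM of Nop58 and Nop56 and the ratios of Nop58 to Nop56 and to Fbl in each library (points, numbered by replicate), with the group mean and SD as lines, n = 3. Both ratios at 1 h lie above those of all control and 6 h libraries.

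How reads were assigned bears on these ratios. The deposited table gives 1 transcript for Nop58, of 1976 bases, where the longest coding transcript in GENCODE M21 has 9507. The exons of Nop58 overlap 84 bases of a snoRNA gene on the same strand, and those of Nop56 overlap 4 snoRNA genes by 70 to 100 bases. The part of these overlaps in the ratio was not tested.

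The 250 bases before the gene starts are shown for Nop58 and Nop56. Their log2 changes at 1 h had opposite signs and passed no test. The same bases are shown for Nop2, the only member with a CACGTG hexamer there (the E-box that MYC and related factors bind). They are from RefSeq on GRCm38.p6, in lower case with matches to CACGTG, to GGGCGG (the GC box; CCGCCC on the other strand) or to heat shock element units in capitals. Each runs to the base before the start, and all lie on the plus strand, at chr1:59684756-59685005, chr2:130274162-130274411 and chr6:125131633-125131882.
Nop58: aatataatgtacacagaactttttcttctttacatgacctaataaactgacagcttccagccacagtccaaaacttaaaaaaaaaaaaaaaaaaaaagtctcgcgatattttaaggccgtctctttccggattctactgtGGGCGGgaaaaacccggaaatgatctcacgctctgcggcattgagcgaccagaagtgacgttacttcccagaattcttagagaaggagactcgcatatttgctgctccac
Nop56: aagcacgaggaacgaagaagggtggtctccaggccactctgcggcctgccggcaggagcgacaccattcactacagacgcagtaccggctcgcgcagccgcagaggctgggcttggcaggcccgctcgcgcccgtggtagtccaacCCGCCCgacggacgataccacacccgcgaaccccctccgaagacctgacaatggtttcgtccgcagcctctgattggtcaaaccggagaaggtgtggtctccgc
Nop2: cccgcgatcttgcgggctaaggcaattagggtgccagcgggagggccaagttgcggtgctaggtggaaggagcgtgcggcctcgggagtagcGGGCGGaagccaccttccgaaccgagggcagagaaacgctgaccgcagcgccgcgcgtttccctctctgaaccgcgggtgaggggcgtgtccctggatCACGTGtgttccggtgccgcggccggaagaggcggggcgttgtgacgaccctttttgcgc
Nop58 has a GC box 110 bases and Nop56 one 104 bases before the start, and Nop2 has CACGTG at 60 and a GC box at 158 bases before it. Windows were found for 30 of the 35 members, and those of Rrp12, Bop1, Npm1, Fbl and Rrs1 were not matched. CACGTG was in 1 of the 30 (3.33%), beside 10.2% of 9206 tested genes with a window. The heat shock unit TTCNNGAA was in 1 (Gar1, 42 bases before the start) beside 7.08%, GAANNTTC in 2 (Nob1 and Wdr12) beside 5.95%, and a run of 3 alternating units in 0 beside 0.467%. GGGCGG on either strand was in 20 of 30 (66.7%) beside 65.8%. Over all 32851 windows of the table the shares were 6.02%, 7.17%, 6.69%, 0.466% and 32.7% in the same order. All motifs were searched on both strands, and the run of 3 units contains both shorter ones. A match is a run of letters, and its absence says only that the letters are not in the window.

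Among the 4 box H/ACA members the median log2 changes were -0.33 at 1 h and 0.39 at 6 h against 1 h. Dkc1 is the pseudouridine synthase dyskerin, and Nhp2, Nop10 and Gar1 complete its particle, which telomerase also uses. Nhp2 was at 67.2, 81.96 and 38.9 FPKM in control, 37.5, 42.8 and 42.1 FPKM at 1 h and 70.8, 57.4 and 76.2 FPKM at 6 h. Its 1 h libraries lay below all others but control replicate 3, which was within their range, and its log2 changes were -0.55 at 1 h (SE 0.25, adjusted p 0.48) and 0.72 at 6 h against 1 h (SE 0.25, adjusted p 0.32). Dkc1 was at 16.5, 25.3 and 8.87 FPKM in control, 11.7, 14.4 and 11 FPKM at 1 h and 23.5, 10.6 and 18.8 FPKM at 6 h. It had the largest residual SD of all members, 0.53 on the log2 scale, and its highest and lowest libraries were both controls. Nop10 was at 67 ± 13 FPKM in control, 52.6 ± 8.5 at 1 h and 68.3 ± 14 at 6 h (SD, n = 3), and Gar1 at 17.2 ± 3.3 FPKM in control, 14.2 ± 1.8 at 1 h and 18.2 ± 3.3 at 6 h (SD, n = 3). Nop10 had its highest value, 82.4 FPKM, in 6 h replicate 2, where most members were low.

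The abundant nucleolar proteins showed the smallest shift at 1 h in Npm1. It was at 708, 989.7 and 478 FPKM in control, 631, 785 and 589 FPKM at 1 h and 734, 823 and 771 FPKM at 6 h. The lowest and the highest value were both controls, and the log2 changes of -0.07 at 1 h and 0.23 at 6 h against 1 h were smaller than their SE of 0.26. Ncl, which binds nascent pre-ribosomal RNA, was at 87.9, 119.8 and 65.7 FPKM in control, 73.03, 83.7 and 65.5 FPKM at 1 h and 99.5, 87.5 and 94.2 FPKM at 6 h. All 6 h libraries were above all 1 h libraries and within the range of control, with a log2 difference from 1 h of 0.34 (SE 0.21, adjusted p 0.56). Nolc1, a chaperone of snoRNPs, was at 30.99 ± 8.4 FPKM in control, 26.04 ± 3.5 at 1 h and 35.8 ± 11 at 6 h (SD, n = 3).

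The small subunit processome and pre-40S factors make up 11 members, with median log2 changes of -0.16 at 1 h and 0.22 at 6 h against 1 h. All 11 were below 0 at 1 h and above 0 at 6 h against 1 h, and none passed the test. Utp3, a processome component, was at 35.4, 39.02 and 35.5 FPKM in control, 28.7, 32.4 and 31.7 FPKM at 1 h and 48.2, 35.6 and 37.9 FPKM at 6 h. It was the only member whose 1 h libraries were below all 6 other libraries, as were 7.5% of all genes tested, and it had the smallest residual SD of the members, 0.15. Its log2 change at 1 h was -0.24 (SE 0.15, adjusted p 0.54), and it was -0.01 when each library was centred on the members. Rrp9, the U3 snoRNP protein, was at 21.8, 34.1 and 19.1 FPKM in control, 15.4, 19.7 and 15.7 FPKM at 1 h and 37.5, 20.5 and 29.5 FPKM at 6 h. It had the largest 6 h to 1 h difference of the members, 0.72 (1.65-fold, SE 0.26, adjusted p 0.35), with no overlap between those groups. Nob1, the endonuclease that makes the end of the small subunit RNA, was at 24.2 ± 7.0 FPKM in control, 18.6 ± 1.8 at 1 h and 27.3 ± 1.9 at 6 h (SD, n = 3), and it was above every 1 h library in each 6 h library.

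Several long small subunit genes were spread most at 6 h. Wdr43, an early processome subunit, was at 20.8, 29.7 and 16.2 FPKM in control, 17.5, 22.5 and 18.6 FPKM at 1 h and 34.4, 11.2 and 21.3 FPKM at 6 h. Its highest and lowest values were both at 6 h, 3.08 times apart, and no comparison had a log2 change above 0.15 in size. Rrp12, which acts in export of pre-ribosomes, was at 6.83, 11.3 and 7.27 FPKM in control, 7.15, 6.52 and 5.23 FPKM at 1 h and 11.4, 4.41 and 8.02 FPKM at 6 h. Utp20, a large scaffold protein, was at 5.04, 9.13 and 6.29 FPKM in control, 5.49, 6.80 and 4.49 FPKM at 1 h and 7.88, 3.41 and 6.95 FPKM at 6 h. In both genes 6 h replicate 2 was the lowest of all 9 libraries. Utp15, another processome subunit, was at 8.05 ± 2.0 FPKM in control, 7.12 ± 1.0 at 1 h and 8.34 ± 4.0 at 6 h (SD, n = 3), and Ddx21, an RNA helicase, at 40.6 ± 11 FPKM in control, 36.4 ± 5.0 at 1 h and 41.3 ± 17 at 6 h (SD, n = 3). Wdr75, Bms1 (a GTPase) and Nop14 were at 18.9 ± 4.7, 18.01 ± 2.1 and 23.5 ± 3.7 FPKM in control (SD, n = 3). Their means at 1 h were 17.4, 16.01 and 20.8 FPKM and at 6 h 22.8, 18.9 and 27.5 FPKM.

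Large subunit assembly is covered by 9 members, all below 0 at 1 h and all above 0 in both comparisons of 6 h, with medians of -0.23 at 1 h, 0.18 at 6 h against control and 0.39 at 6 h against 1 h. Nop2, an RNA methyltransferase, was at 34.2, 49.9 and 27.97 FPKM in control, 27.5, 29.5 and 23.6 FPKM at 1 h and 55.5, 30.96 and 42.9 FPKM at 6 h. Every 6 h library was above every 1 h library, by 0.63 on the log2 scale (SE 0.25, adjusted p 0.38), and control replicate 3 lay within the range at 1 h. Pes1, Bop1 and Wdr12 form 1 complex (PeBoW). Pes1 was at 36.6 ± 7.0 FPKM in control, 31.6 ± 1.7 at 1 h and 40.5 ± 5.2 at 6 h (SD, n = 3). Bop1 was at 22.3 ± 4.0 FPKM in control, 17.2 ± 1.2 at 1 h and 22.7 ± 3.0 at 6 h (SD, n = 3), and Wdr12 at 12.98 ± 4.5 FPKM in control, 10.6 ± 1.9 at 1 h and 14.5 ± 3.1 at 6 h (SD, n = 3). The ratio of Wdr12 to Pes1 was 0.349 ± 0.051, 0.335 ± 0.041 and 0.357 ± 0.043 in control, at 1 h and at 6 h, and that of Bop1 to Pes1 0.611 ± 0.052, 0.546 ± 0.014 and 0.561 ± 0.044 (SD, n = 3). The Bop1 to Pes1 ratios at 1 h (0.530 to 0.557) were all below those in control (0.578 to 0.671), and the Wdr12 to Pes1 ratios overlapped between all groups. For Bop1 to Pes1 at 1 h the two-sided exact permutation test gave its lowest possible p, 0.1 (0.39 adjusted over 27 tests). Nothing is supported with it.

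Of the remaining large subunit factors, Ftsj3 (a methyltransferase) was at 38.8 ± 8.1 FPKM in control, 33.3 ± 4.0 at 1 h and 44.1 ± 6.9 at 6 h (SD, n = 3), and Ddx18 (a helicase) at 36.5 ± 8.7 FPKM in control, 33.6 ± 5.6 at 1 h and 44.6 ± 8.3 at 6 h (SD, n = 3). Nop16 and Ebna1bp2 were at 26.2 ± 10.3 and 25.04 ± 7.2 FPKM in control, 19.9 ± 2.7 and 19.1 ± 1.4 at 1 h and 29.9 ± 6.2 and 27.9 ± 5.1 at 6 h (SD, n = 3), and both were higher in every 6 h library than in every 1 h library. Rrs1, which helps to place the 5S particle, was at 23.1 ± 6.4 FPKM in control, 21.4 ± 2.4 at 1 h and 24.9 ± 8.2 at 6 h (SD, n = 3).

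Transcript length went with the spread at 6 h in the medians of length classes, and single members departed from this. Relative to the mean of 6 h replicates 1 and 3, replicate 2 was higher by a median of 0.22 for all tested genes with a longest transcript of up to 1500 bases, and its median difference was -0.33 for those over 3500 bases. Among the members 30 were lower in replicate 2 than in both other 6 h libraries, and Nop10 and Npm1 were higher than in both. The differences were 0.43 for Nop10 (738 bases), 0.13 for Npm1 (1422 bases), -1.09 for Utp15 (4071 bases), -0.93 for Utp20 (8831 bases) and -1.21 for Wdr43 (3450 bases). Long members with smaller falls were Ncl (8257 bases) at -0.14 and Bms1 (4288 bases) at -0.33. Shorter ones that fell more were Nop56 (1895 bases) at -0.79 and Rrp9 (1537 bases) at -0.67. For the 4 length classes, from short to long, the members' medians were 0.02, -0.51, -0.53 and -0.69, each below that of all genes in its class (0.22, 0.05, -0.11 and -0.33). A tilt the other way was present in control replicate 3, at -0.28 to 0.23 for all genes from the shortest to the longest class, and in 6 h replicate 1, at -0.29 to 0.21. After centring each library within 20 length bins, an alternative chosen after seeing the data, the members' median was -0.08 at 1 h, 0.17 at 6 h against control and 0.25 at 6 h against 1 h, and 0 members were called. The part of RNA quality in this tilt was not tested.

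**Figure D5:**
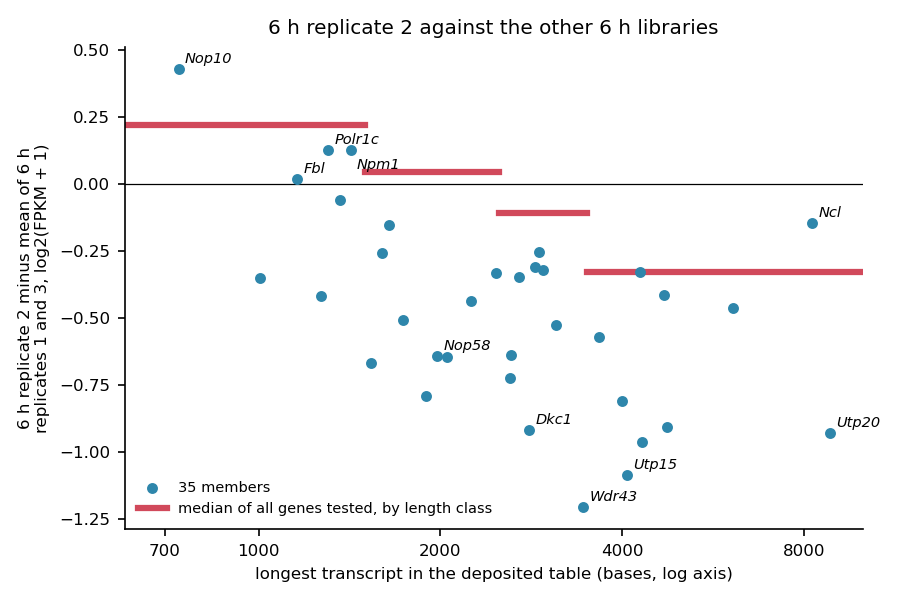
Difference of 6 h replicate 2 from the mean of 6 h replicates 1 and 3, on the log2(FPKM + 1) scale, against the longest transcript in the deposited table (log axis) for the 35 members (points). Red lines are medians of all genes tested in 4 length classes, which go from 0.22 to -0.33, and most members lie below them.

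The wider pathway was read from 6 lists of 137 other ribosome biogenesis genes, of which 136 were tested. None was called in any comparison. At an unadjusted p below 0.05 the exosome, which trims ribosomal RNA ends, had 2 of 12 genes at 1 h, 2 at 6 h and 7 at 6 h against 1 h, and the other small subunit genes had 4, 0 and 8 of 40. The other large subunit genes had 2, 1 and 11 of 44, the other RNA polymerase I genes 2, 0 and 3 of 17, the other snoRNP genes 1, 0 and 1 of 11, and the regulators 4, 0 and 4 of 12. Of all genes 10.8%, 4.62% and 11.6% were below that p in the 3 comparisons, so the small and large subunit genes and the snoRNP genes at 1 h were at or below the background share. The median log2 changes for 6 h against 1 h were 0.42, 0.34, 0.30, 0.38, 0.27 and 0.23 in the same order of lists, beside 0.095 for all genes.

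Rrp7a (small subunit) was at 45.0, 53.1 and 41.3 FPKM in control, 33.97, 34.8 and 34.4 FPKM at 1 h and 50.1, 47.8 and 52.4 FPKM at 6 h, with a log2 difference of 0.53 from 1 h to 6 h (SE 0.13, adjusted p 0.17). Exosc4 was at 9.46, 10.3 and 10.9 FPKM, then 7.74, 7.54 and 6.92 FPKM, then 11.4, 10.7 and 12.8 FPKM (0.59 from 1 h to 6 h, SE 0.14, adjusted p 0.15). Dhx37, Exosc6, Pelp1 and Nip7 had differences from 1 h to 6 h of 0.68, 0.70, 0.38 and 0.84 (adjusted p 0.21, 0.21, 0.31 and 0.2), and Cd3eap, Polr2e, Ruvbl2 and Znhit3 0.43, 0.43, 0.51 and 0.47 (adjusted p 0.26, 0.32, 0.37 and 0.45). At 1 h Exosc6, Exosc4, Rrp7a, Dhx37, Pelp1 and Wdr18 had log2 changes of -0.70, -0.42, -0.42, -0.44, -0.40 and -0.47, and Taf1c, Polr2e, Znhit3 and Rpap3 -0.49, -0.36, -0.52 and -0.19, with adjusted p from 0.3 to 0.6.

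For 6 h against control the genes with the smallest p of each list all had an adjusted p of 0.88. Exosc2 had the widest difference, 1.21, and was at 22.6, 33.96 and 13.3 FPKM in control and at 23.5, 73.8 and 78.9 FPKM at 6 h, so that replicate 1 lay within the controls. Nip7 followed at 0.75, then Taf1a at 0.44, Polr2l at 0.41, Ddx51 at 0.37, Ruvbl2 and Exosc3 at 0.35 each, Cirh1a at 0.32, Fcf1 at 0.23 and Ruvbl1 at 0.19. Mxd1 and Mnt, antagonists of Myc, were at -0.37 and -0.36.

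Among the regulators, Myc, a transcription factor known to drive ribosome biogenesis genes, was at 54.5, 30.7 and 18.7 FPKM in control, 104, 98.0 and 116 FPKM at 1 h and 45.6, 17.2 and 33.0 FPKM at 6 h. All 1 h libraries were above all 6 others, as held for 1.68% of all genes tested. The log2 change was 1.71 at 1 h (SE 0.40, limma adjusted p 0.22) and -1.80 from 1 h to 6 h (adjusted p 0.14), so it did not pass the test. Sirt7, a deacetylase that acts on RNA polymerase I, was at 15.1, 11.9 and 12.7 FPKM, then 10.6, 9.51 and 9.57 FPKM, then 17.2, 14.1 and 15.7 FPKM, with log2 changes of -0.38 at 1 h and 0.61 from 1 h to 6 h (adjusted p 0.43 and 0.16).

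Outside the lists, the genes most like the members' median over 9 libraries were Grwd1, Wdr4 and Bzw2 (Pearson correlation 0.99 each), Psmd7 and Gpn1 (0.98 each). Grwd1 was at 14.0, 24.3 and 9.38 FPKM in control, 11.3, 13.7 and 10.3 FPKM at 1 h and 26.3, 11.04 and 18.9 FPKM at 6 h, which repeats the high values of control replicate 2 and 6 h replicate 1. They were picked for this likeness from 11460 genes.

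The authors' deposited table has 0 members that combine a 2-fold change with a q-value of 0.001 or less at 1 h, 6 h or between them, beside 7.84%, 6.45% and 4.5% of the genes with a q-value there. By the q-value limit alone the authors' deposited table has 32, 23 and 32 of the 35, beside 55.2%, 44.1% and 48.7%. For Ncl at 1 h its q-value was 3.3e-186 at a log2 fold change of -0.30, though the 1 h and control libraries overlapped. These q-values are therefore not read here as a measure of the spread between libraries, with which limma called 0 members. For Nop58 the authors' deposited table gives a log2 fold change of 0.52 at 1 h and -0.44 from 1 h to 6 h, and for Nop56 -0.40 and 0.68.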

How the data were processed

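Gene-level values came from 1 table of 9 libraries, and all sample columns were mapped by their labels. Its FPKM values were made by the authors and deposited with 2 decimals. Per the submitters' processing notes HISAT2 2.0.4, Bowtie2 2.2.5, RSEM 1.2.12 and mm10 were used, without the step that each did. The authors' q-values come from DEGseq, per the file headers, which name no tool for the log2 fold changes and p-values. No label names the kit or its strand setting. The test design had been written for RPKM or counts, and the log-scale test was applied to FPKM.

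A gene entered if 3 or more of the 9 libraries reached 1 FPKM, which left 11460 of 17559 with values. Values were set to log2(FPKM + 1) and tested with limma 3.58.1 (R 4.3.3), its variance prior following the mean, in 1 fit of 3 group means with 6 residual degrees of freedom. Tests were two-sided with Benjamini-Hochberg adjustment over all genes, called below 0.05. The scale understates changes of low genes. Depth was estimated from the lowest values, assuming 1 read as the step and a length offset of 35 bases. Of the low values 86.3% to 90.8% lay within 0.2 of a whole read, so no count test was run. The fit was checked on simulated data. The check of genes against transcripts and exons used GENCODE M21.

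Values in every library are given for members called in any comparison, the 4 members with the largest change in each direction among those without overlap between groups, the 5 highest and 3 lowest by mean, and the 3 with the largest residual SD. The other members are given by group means, and of each other list the 2 genes with the smallest p per comparison are named. The genes most alike are the 5 outside the lists with the highest Pearson correlation. The members and all lists were chosen with earlier results of these data known. In 22 alternatives the pseudocount, filter, scaling, variance prior, library weights, pairing or libraries were changed, and 2 of these were added after seeing the data.

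Replicate numbers were checked as a pairing. Deviations of same-numbered libraries from their group means correlated at 0.194, 0.149 and 0.262 between control and 1 h, all over 0.1, and at -0.178, 0.041 and 0.014 between control and 6 h. Between 1 h and 6 h those deviations correlated at -0.269, -0.104 and -0.35. Only the numbers of control and 1 h passed a limit of 0.1 in every pair, and no label says that they are paired. Whether a shared number marks shared cells was not tested. The fit reported has no block, and the blocked fit is 1 of the alternatives.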

Additional observations from a re-analysis of the deposited data

Results flagged for a closer look

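In Polr1c, Fbl and Nob1 every 1 h library lay below the control mean and every 6 h library above it. On the log2(FPKM + 1) scale the change at 6 h minus that at 1 h was 0.635 for Polr1c, 0.483 for Fbl and 0.529 for Nob1. As the control mean is shared, this is the difference of 6 h from 1 h, which had adjusted p of 0.3, 0.45 and 0.36 with limma over all genes. No other member had this pattern, which 4.39% of all genes tested had in the same direction.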

How the results depend on the processing

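Over 22 alternatives 0 members were called at 6 h against control, and 21 alternatives called 0 at 1 h and 0 at 6 h against 1 h. The exception was limma's array weights, whose fit stopped before convergence and which gave the libraries weights from 0.266 (6 h replicate 2) to 4.24 (control replicate 1). It called 3 members at 1 h (Nhp2 at -0.68, Bop1 at -0.35 and Nop58 at 0.52, adjusted p 0.017, 0.044 and 0.045) and 1 at 6 h against 1 h (Nhp2 at 0.79, adjusted p 0.048), with 13 and 6 of the other ribosome biogenesis genes. Called genes of all kinds then numbered 1340 and 263, beside 18 and 32. Centring each library on the members called 1 of the other ribosome genes at 1 h and 1 at 6 h against 1 h, and by construction brought the members' median there to 0.021. Leaving out 1 library at a time called 0 members in each comparison, 0 of the other ribosome genes at 1 h and at 6 h against control, and 0 to 1 at 6 h against 1 h. It moved the members' median over -0.40 to -0.05 at 1 h, -0.06 to 0.31 at 6 h against control and 0.25 to 0.49 at 6 h against 1 h. All genes called then ranged from 8 to 52 at 1 h, 0 to 25 at 6 h against control (25 without 6 h replicate 1) and 8 to 104 at 6 h against 1 h (104 without it). The causes were not tested. Of the 13 members without overlap between 6 h and 1 h, 11 stayed above 0 in all 22 alternatives, and Ncl and Pes1 reached -0.009 and -0.007 when each library was centred on the members. Polr1a and Utp3 stayed below 0 at 1 h in all 22.

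With the replicate number as a block, Nop58 at 1 h was at 0.56 with an adjusted p of 0.55. The block changed no call of a member, and over all genes 15, 0 and 23 were called at 1 h, at 6 h against control and at 6 h against 1 h. The SEs of the members' log2 changes were 0.15 to 0.37 with 6 residual degrees of freedom, which limits the size of change that could be called.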
